A study of Mus musculus with 11 samples.

Results

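The cholesterol synthesis and lipid export genes examined here are 28 genes of the 24421 measured, taken as a fixed list of symbols: 18 enzymes that build cholesterol, 6 genes that control the pathway or move sterols within the cell, and 4 genes of lipoprotein export. RNA was sequenced from cells of 16-week-old C57BL/6 Aldh1l1-eGFP mice, in which the promoter of the astrocyte gene Aldh1l1 drives a green fluorescent protein, after sorting for fluorescence. There were 3 samples from the olfactory bulb (OB), 3 from the hippocampus (HC), 2 from the cortex (CX) and 3 from the brainstem (BS). All carried the same reporter and none was treated. Each sample is a sorted population from 1 region, and whether the samples came from separate animals is not given in the sources used here, so that p-values measure the spread between these samples only. All 28 genes were detected in every sample, and all 28 passed the filter on low counts, as did 13875 genes of the whole table.

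Cholesterol cannot cross from the blood into the adult brain, which therefore makes its own, and astrocytes are a main source. Acetyl-CoA is built up to mevalonate, isoprenoids and squalene, and squalene is then oxidized, closed into the sterol rings and trimmed to cholesterol. The transcription factors SREBP1 and SREBP2, encoded by Srebf1 and Srebf2, switch these enzymes on when sterols are low. They are escorted by Scap and held back in the endoplasmic reticulum by Insig1 and Insig2. Astrocytes load cholesterol onto apolipoprotein E through the transporters Abca1 and Abcg1, and neurons take up the resulting particles.

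The promoters of 6 genes are shown because Hmgcs1 holds the sterol regulatory element searched for, Msmo1, Lss, Cyp51 and Hsd17b7 passed the test for higher values in the CX, and Apoe passed the test for lower values in the BS. They are the 200 bases before the transcription start in RefSeq's annotation of GRCm38.p6, written along the strand of the gene from 5′ to 3′. For Apoe, this is 1 of 3 starts listed. Capitals mark the sterol regulatory element TCACNCCAC and the CCAAT box on either strand, which reads ATTGG on the other one.
Hmgcs1 promoter, chr13:119690151-119690350, plus strand: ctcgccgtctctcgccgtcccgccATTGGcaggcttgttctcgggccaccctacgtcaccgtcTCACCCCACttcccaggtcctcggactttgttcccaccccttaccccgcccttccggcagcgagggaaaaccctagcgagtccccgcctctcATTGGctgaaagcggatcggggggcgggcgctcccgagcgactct
Msmo1 promoter, chr8:64733579-64733778, minus strand: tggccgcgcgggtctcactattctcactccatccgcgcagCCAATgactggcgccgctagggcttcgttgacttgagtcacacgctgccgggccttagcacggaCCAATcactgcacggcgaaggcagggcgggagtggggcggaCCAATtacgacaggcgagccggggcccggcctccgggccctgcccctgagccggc
Lss promoter, chr10:76531405-76531604, plus strand: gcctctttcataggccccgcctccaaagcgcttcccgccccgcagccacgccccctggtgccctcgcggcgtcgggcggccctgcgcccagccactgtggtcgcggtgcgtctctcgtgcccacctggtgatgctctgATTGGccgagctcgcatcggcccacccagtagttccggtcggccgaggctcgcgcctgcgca
Cyp51 promoter, chr5:4104698-4104897, minus strand: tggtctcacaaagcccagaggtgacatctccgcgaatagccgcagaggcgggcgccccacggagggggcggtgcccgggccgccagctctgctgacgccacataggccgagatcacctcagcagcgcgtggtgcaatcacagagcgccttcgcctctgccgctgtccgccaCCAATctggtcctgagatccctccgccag
Hsd17b7 promoter, chr1:169969206-169969405, minus strand: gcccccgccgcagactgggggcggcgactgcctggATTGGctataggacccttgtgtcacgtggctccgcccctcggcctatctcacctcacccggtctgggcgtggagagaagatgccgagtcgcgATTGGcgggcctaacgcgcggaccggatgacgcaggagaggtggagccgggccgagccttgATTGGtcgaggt
Apoe promoter, chr7:19699189-19699388, minus strand: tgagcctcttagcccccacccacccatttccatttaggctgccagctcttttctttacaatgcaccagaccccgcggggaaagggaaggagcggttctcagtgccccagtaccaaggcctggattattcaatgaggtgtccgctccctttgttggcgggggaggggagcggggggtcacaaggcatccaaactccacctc

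The longer RefSeq window of 250 bases before to 50 after the start was available for 22 of the 28 genes and 15 of the 18 enzymes. On both strands, the CCAAT box, bound by the factor NF-Y, was present in 18 of these 22 genes and in 14 of the 15 enzymes, Acat2 being the enzyme without it. Of all 27025 genes with a promoter in the same table, 41.1% held this box. GGGCGG, the letters of a GC box bound by Sp1, occurred in 20 of the 22 genes and 38.2% of all genes. CACGTG, an E-box, occurred in 6 of the 22 and 8.09% of all genes. TCACNCCAC occurred in Hmgcs1 alone among the 22, and in 1.44% of all genes. Other spellings of the sterol regulatory element were not searched for, so that a gene without these letters can still hold one. These matches are descriptions of the letters in this window.

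Sequencing gave between 2830746 and 14151670 reads on genes per sample, with a median of 5552215. A value is the read count of a gene divided by 1 size factor per sample, and 3 reads, taken as the floor of detection, correspond to values between 1.10 and 6.31. This floor covers the error of counting alone. Ribosomal RNA precursor reads (Rn45s) made up 0.966% to 2.93% of the reads in the OB and HC samples and 18% to 25.6% in the CX and BS samples. The summed level of 10 astrocyte markers lay between 234740 and 280692 in OB, 274406 and 466755 in HC, 561412 and 636418 in CX and 97870.3 and 287214 in BS samples, and no astrocyte marker was at 0 in any region. Within this list the glutamate transporter gene Slc1a3 had values of 1953, 6315 and 5142 in the BS against at least 14218 elsewhere. The 11 choroid plexus markers summed to between 144 and 153 in the OB, where Folr1 and Slc4a5 were at 0, to between 1849 and 5297 in the CX, to between 73938 and 149966 in the HC and to between 53051 and 251198 in the BS. The 12 oligodendrocyte markers summed to between 9984 and 16565 in OB, 19294 and 41651 in HC, 20291 and 21328 in CX and 54166 and 93068 in BS samples. The F test described below called 10 of these 12, of which Sox10 went the other way, with its highest values in the OB. All 11 choroid plexus markers were called as well. Olfactory sensory neuron markers summed to between 283 and 567 in the OB and to at most 18.8 elsewhere, with S100a5 at 0 outside the OB. Over all samples, sums ranged from 320.4 to 823 for 4 oligodendrocyte precursor markers, from 1288 to 4746 for 11 microglial, from 1338 to 3766 for 10 neuronal, of which 7 were called in the F test, from 721 to 3960 for 8 endothelial and mural, and from 22.6 to 465 for 6 ependymal markers. Of the neuronal markers, Gad1 had 301 to 473 in OB samples and at most 67.3 elsewhere, Gad2 302 to 391 and at most 286, and Snap25 1735 to 2595 in BS samples and at most 1757 elsewhere. Snap25, Stmn2, at 152 to 208 in the BS, and Eno2 were called higher there. Slc17a7, Syt1 and Rbfox3 of the same list were called lower there, at 10.5 to 21.0, 115 to 200 and 22.0 to 40.0. The part of neuronal, oligodendrocyte or choroid plexus RNA in the results of any region was not tested.

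On the deposited scale, sterol synthesis genes had their highest values in the CX and their lowest in the OB, and the order at the top depended on the scaling described below. Of the 18 enzymes, 16 had their highest region mean in the CX, against 24.7% of all genes tested, and 14 had their lowest in the OB, against 25.2% of all genes. Members and gene lists were chosen with earlier results of these data known. Shares set against all genes, here and below, are therefore descriptions and not independent support. The exceptions at the top were Fdps and Ebp, with the highest mean in the BS. The exceptions at the bottom were Ebp, Sc5d, Dhcr7 and Acat2. In the CX the enzymes had a median log2 difference from the other regions of 0.76, with 16 of 18 above 0, while the median over all genes tested was -0.03. In the OB their median was -0.47, with 17 of 18 below 0, while that of all genes was 0.02. In the HC and BS the medians of the enzymes were 0.00 and 0.02.

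**Figure D1:**
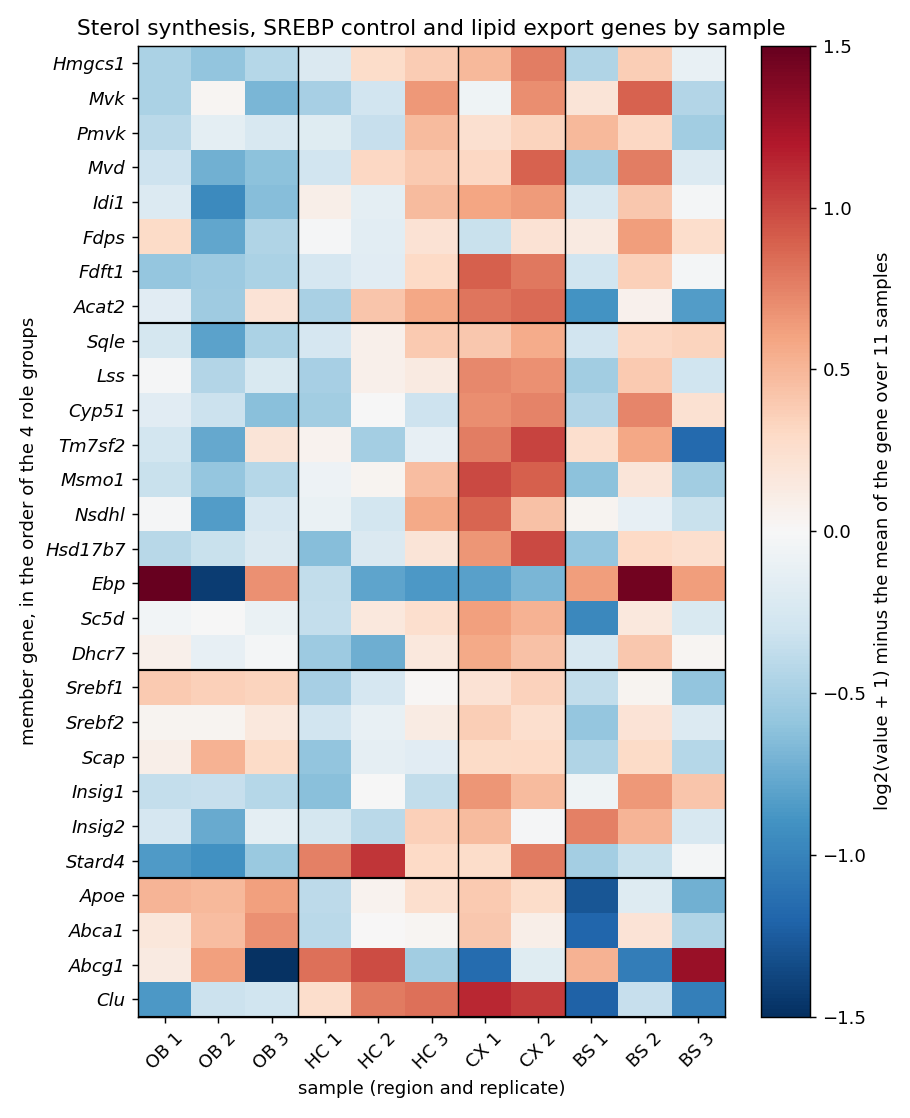
Level of each of the 28 genes in each of the 11 samples, as log2(value + 1) minus the mean of the gene over all samples (colour), with samples grouped by region along the horizontal axis and genes grouped by role along the vertical axis. The enzymes in the upper 18 rows are, on the deposited scale, mostly above their mean in both CX samples and below it in the OB samples, with Ebp as a departure from this order.

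Regions were compared in 2 ways. A single region was set against the samples of the others pooled, and a gene was called with the thresholds of the study, a p under 0.01, a fold above 1.5 and 2 or more replicates of a region with values above 5. The p was taken here as unadjusted, and the further condition of the study that a gene differ in its region only was not applied. Adjusted p-values are printed beside such calls and can lie above 0.05. A limma F test across the 4 regions called 11 of the 28 genes, or 39.3%, at a Benjamini-Hochberg adjusted p under 0.05, against 16.5% of all genes tested. They were the enzymes Hmgcs1, Idi1, Fdft1, Sqle, Cyp51 and Msmo1, the regulatory and transfer genes Srebf1, Insig1 and Stard4, and the secreted apolipoproteins Apoe and Clu. Single libraries moved this count widely: it was 4 without either of the CX samples, 5 without any one of the OB samples, 7 without BS replicate 3 and 17 without BS replicate 2. BS replicate 2 had the highest value of the BS samples in 22 of the 28 genes, against 34.9% of all genes. Both CX samples lay above every other sample in 13 of the 28 genes, or 46.4%, against 5.02% of all genes. These were Hmgcs1, Idi1, Fdft1, Sqle, Lss, Tm7sf2, Msmo1, Hsd17b7, Sc5d, Dhcr7, Srebf2, Acat2 and Clu.

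Hmgcs1, which encodes the cytosolic synthase that makes HMG-CoA on the way to mevalonate, was the most highly expressed enzyme per length, with a mean value of 680.1 per kilobase of exon. It lies on chromosome 13 of GRCm38 from 119690379 to 119708260. Its values were 2144, 1972 and 2210.1 in OB, 2550.4, 3613 and 3861 in HC, 4181 and 5067 in CX and 2168, 3854 and 2745 in BS samples. Both CX samples were the highest of all, and the OB overlapped with the lowest BS sample. The regions differed (limma F test, adjusted p = 0.0237), a call lost without either CX sample or any one OB sample, with adjusted p between 0.0638 and 0.129.

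Idi1, which interconverts the isoprenoid building blocks, lies on chromosome 13 from 8885501 to 8892451. It had values of 898, 534 and 664 in OB, 1105, 938 and 1442 in HC, 1563 and 1619 in CX and 876, 1376 and 1019 in BS samples. It was lower in the OB by a log2 difference of -0.83 ± 0.22 (SE; limma, adjusted p = 0.049). On the deposited values, no other region comparison of a member passed after adjustment in limma. The OB samples overlapped with the BS through OB replicate 1. The adjusted p in the F test was 0.0151 (limma), a call that was lost without either CX sample and without OB replicate 2 or 3. Without OB replicate 2 the difference was -0.65 and without OB replicate 3 it was -0.81, and neither was called.

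Fdft1 encodes squalene synthase, the first enzyme committed to sterols, and lies on chromosome 14 from 63145150 to 63179578. The OB samples had values of 625, 642 and 677, the HC samples 785, 832 and 1157, the CX samples 1751 and 1625, and the BS samples 760.1, 1202 and 922. All OB samples were below and both CX samples above every other sample. In the CX, Fdft1 was higher by 1.03 ± 0.24 (SE) on the log2 scale (limma, adjusted p = 0.210). The F test gave an adjusted p of 0.00264 (limma), which stayed under 0.05 in every alternative run. Its exons overlap those of Ctsb on the opposite strand, and since the handling of strand is not given in the sources used here, reads of both genes cannot be told apart in the overlap.

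Among the remaining genes of the mevalonate arm, the kinases Mvk and Pmvk, the decarboxylase Mvd, the farnesyl diphosphate synthase Fdps and the acetyl-CoA acetyltransferase Acat2 passed none of the tests. Their region means ranged from 60.2 for Mvd in the OB to 243 for Acat2 in the CX. Acat2 had values of 239 and 247 in the CX and of at most 205 elsewhere. Mvd had 52.9 to 70.6 in the OB and 109 and 163 in the CX.

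Of the genes that oxidize and close squalene, Sqle encodes squalene epoxidase, a rate-controlling step after mevalonate. Its values were 520.1, 357 and 449 in OB, 523, 661 and 823 in HC, 828 and 923 in CX and 511, 775 and 789 in BS samples. The CX samples were the highest, and OB replicate 1 lay just within the range of the BS. Sqle was lower in the OB by -0.71 ± 0.20 (SE) on the log2 scale (limma, adjusted p = 0.0630), with an adjusted p of 0.0413 in the F test, a call that held without BS replicates 1 or 2 or HC replicates 1 or 3 and was lost without any of the other samples. Neither OB replicate 2 nor OB replicate 3 could be left out without losing the call, at -0.56 and -0.73.

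Lss, which closes the ring to lanosterol, had values of 430.0, 319.7 and 372 in OB, 306, 459 and 477 in HC, 717 and 698 in CX and 302, 569 and 351 in BS samples. The CX samples stood above all others, and the other regions overlapped. The difference in the CX was 0.86 ± 0.23 (SE) on the log2 scale (limma, adjusted p = 0.25), while the F test did not call Lss (limma, adjusted p = 0.0813).

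Cyp51 removes the first methyl group of lanosterol. It had values of 804, 724 and 586 in OB, 633, 902 and 732 in HC, 1471 and 1516 in CX and 665, 1509 and 1059 in BS samples. BS replicate 2 lay between both CX samples, so that the groups overlapped. Cyp51 was called higher in the CX at 0.88 ± 0.29 (SE) on the log2 scale (limma, adjusted p = 0.347). This call did not hold in edgeR, DESeq2 or limma without a trend, at differences of 0.80 to 0.88, nor without any single sample other than BS replicates 2 and 3. The adjusted p in the limma F test was 0.0354, and exceeded 0.05 without BS replicate 3, HC replicate 3 or any of the OB and CX samples.

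Msmo1, the sterol C4-methyl oxidase, lies on chromosome 8 from 64718139 to 64733792 and showed the largest difference of the enzymes called in the CX. The values were 528, 447 and 497 in OB, 633, 687 and 923 in HC, 1323 and 1240.4 in CX and 434, 755 and 465 in BS samples. Both CX samples exceeded all other samples. The log2 difference was 1.15 ± 0.26 (SE; limma, adjusted p = 0.199), and the F test gave an adjusted p of 0.00288 (limma), below 0.05 in all alternatives run.

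Hsd17b7, a ketoreductase of the same demethylation steps, had values of 116, 123 and 134 in OB, 99.9, 134 and 178 in HC, 248 and 309.7 in CX and 104, 192 and 185 in BS samples. The CX samples were the highest, and the other regions overlapped. It was higher in the CX by 1.01 ± 0.27 (SE) on the log2 scale (limma, adjusted p = 0.25), and was not called in the F test (limma, adjusted p = 0.0687).

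Tm7sf2, a sterol C14-reductase, was among the lowest of the 28 genes, with a mean of 8.58 per kilobase of exon. Its values were 28.2, 19.7 and 39.3 in OB, 35.6, 23.7 and 31.6 in HC, 59.0 and 70.5 in CX and 41.0, 52.1 and 14.7 in BS samples. The CX samples were the highest, by a small margin over BS replicate 2. The log2 difference in the CX of 1.09 ± 0.45 (SE) did not pass the rule (limma, adjusted p = 0.445). The lowest sample held 7 reads of this gene, and its exons overlap those of Vps51 on the same strand. Exons of 9 of the 28 genes overlap another gene. Besides Fdft1 and Tm7sf2 these are Cyp51 with Akap9, Srebf1 with Rai1 and Mir6922, Fdps with Gm43738, and Hmgcs1, Idi1, Lss and Scap with antisense or unclassified transcripts, and their values are uncertain to that extent. Of the other ring-modifying enzymes, Sc5d and Dhcr7 had both CX samples above all others, at 1092 and 1021 and at 330.4 and 304. Nsdhl had 604 and 445 in the CX and up to 489 in the HC. Ebp ran the other way, with 12.6 and 13.8 in the CX but 35.7 to 64.1 in BS samples, and ranged from 7.89 to 68.4 within the OB.

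**Figure D2:**
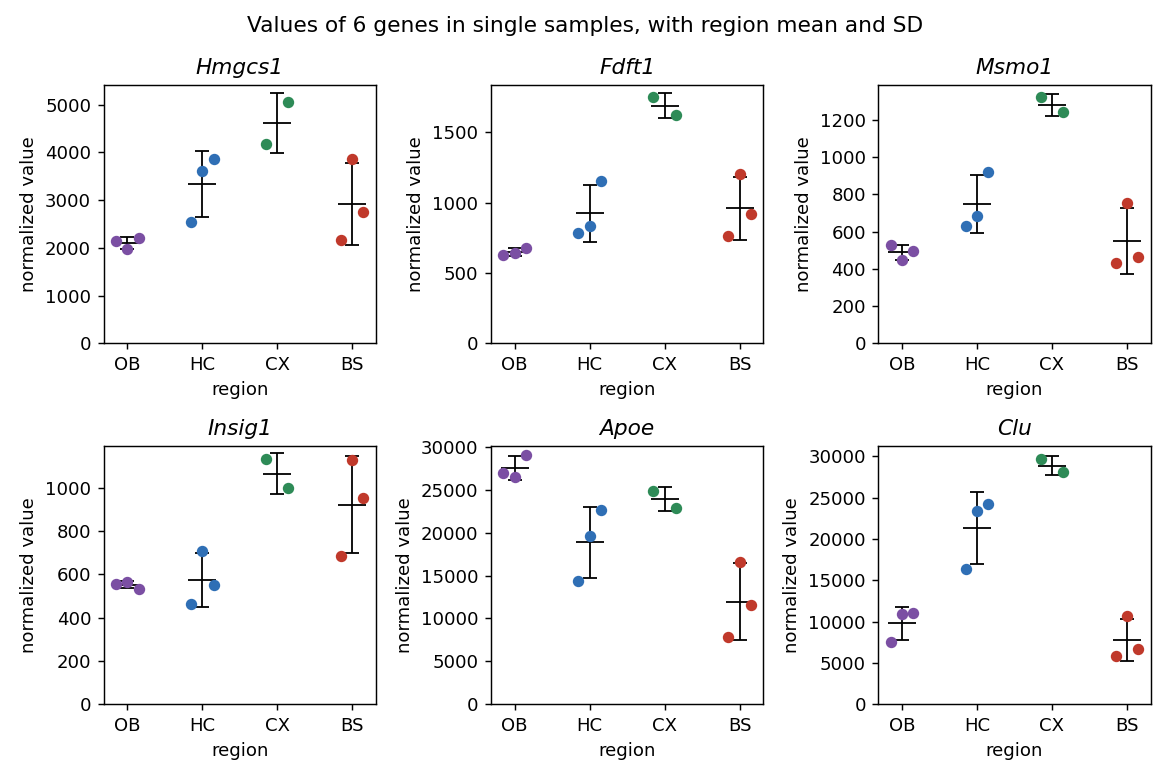
Normalized values of Hmgcs1, Fdft1, Msmo1, Insig1, Apoe and Clu (vertical axes, starting at 0) in single samples of each region (points), with the mean and SD of the region (bars, n = 3, or 2 in the CX). For the 3 enzymes of the upper row the CX samples are the highest, whereas Apoe is highest in the OB and Clu is low in both OB and BS.

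Region by region, the CX had 5 genes called higher and none lower: Fdft1, Lss, Cyp51, Msmo1 and Hsd17b7. Of all genes, 1.02% were called higher in the CX. In the OB, Idi1, Sqle and Stard4 were called lower and none higher, with a background of 3.89% of all genes called lower. In the BS, Apoe alone was called, as lower, against 5.05% of all genes. No member was called in the HC by limma, edgeR or DESeq2, where 1.28% of all genes were called in either direction. In the HC, 2 members reached an unadjusted p under 0.05 in limma, 1 in edgeR and 2 in DESeq2. At an adjusted p under 0.05, Idi1 in the OB was the only call that limma made in any of these comparisons. The CX comparison rests on 2 samples: 1 gene, Hsd17b7, was called without CX replicate 1, and 2 genes, Fdft1 and Msmo1, without CX replicate 2, while 8 were called without HC replicate 3. In the OB, no gene was called without OB replicate 2 or without OB replicate 3, and 6 were called without BS replicate 1.

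The summed astrocyte markers were highest in the CX, mostly through the glutamate transporter gene Slc1a2, with 541892 and 472464 there. Slc1a3, Gja1 and Sox9 also had both CX samples above all others, at 33551 and 31576, 5494 and 5136, and 2632 and 2695. Aldh1l1, Aldoc and Gjb6 had their highest region mean in the CX. The remaining markers of the list went another way. Gfap had 889 and 1309 in the CX and 3168 to 4028 in OB and HC samples, and S100b and Aqp4 were highest in BS replicate 2, at 6281 and 20767. The comparison was repeated on values rescaled so that the 10 astrocyte markers had the same median level in every sample, a choice made after seeing the data. This rescaling moved the median difference of all genes to -0.49 for the CX and to 0.35 for the BS. Relative to those medians, the enzymes stayed 0.78 higher in the CX and -0.49 in the OB, as against 0.79 and -0.49 before, since a factor per sample moves all genes alike. The rescaled median difference of the enzymes itself was 0.29 in the CX, 0.35 in the BS and -0.49 in the OB. On the rescaled values no member was called in the CX, where Fdft1, Lss and Msmo1 were the members with both CX samples above all others, against 0.764% of all genes, and the differences were 0.67 for Msmo1 and 0.56 for Fdft1. On this scale 5 genes were called lower in the OB, namely Hmgcs1, Idi1, Fdft1, Sqle and Msmo1, against 2.4% of all genes. Their adjusted p (limma) was 0.0228, 0.0298, 0.0401, 0.0748 and 0.139, in that order. Apoe and Abca1 were called higher (limma, adjusted p = 0.0546 and 0.117), against 3.52% of all genes. Stard4 was no longer called in the OB. In all samples of the OB, Fdft1 and Stard4 were below every other sample on the deposited scale, against 3.24% of all genes, and 8 members were so after rescaling, against 1.96%. The CX and BS samples also had the high Rn45s shares, and the part of marker levels or of Rn45s in these differences was not tested. Fewer astrocytes and less RNA per astrocyte cannot be told apart in such sorted populations.

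**Figure D3:**
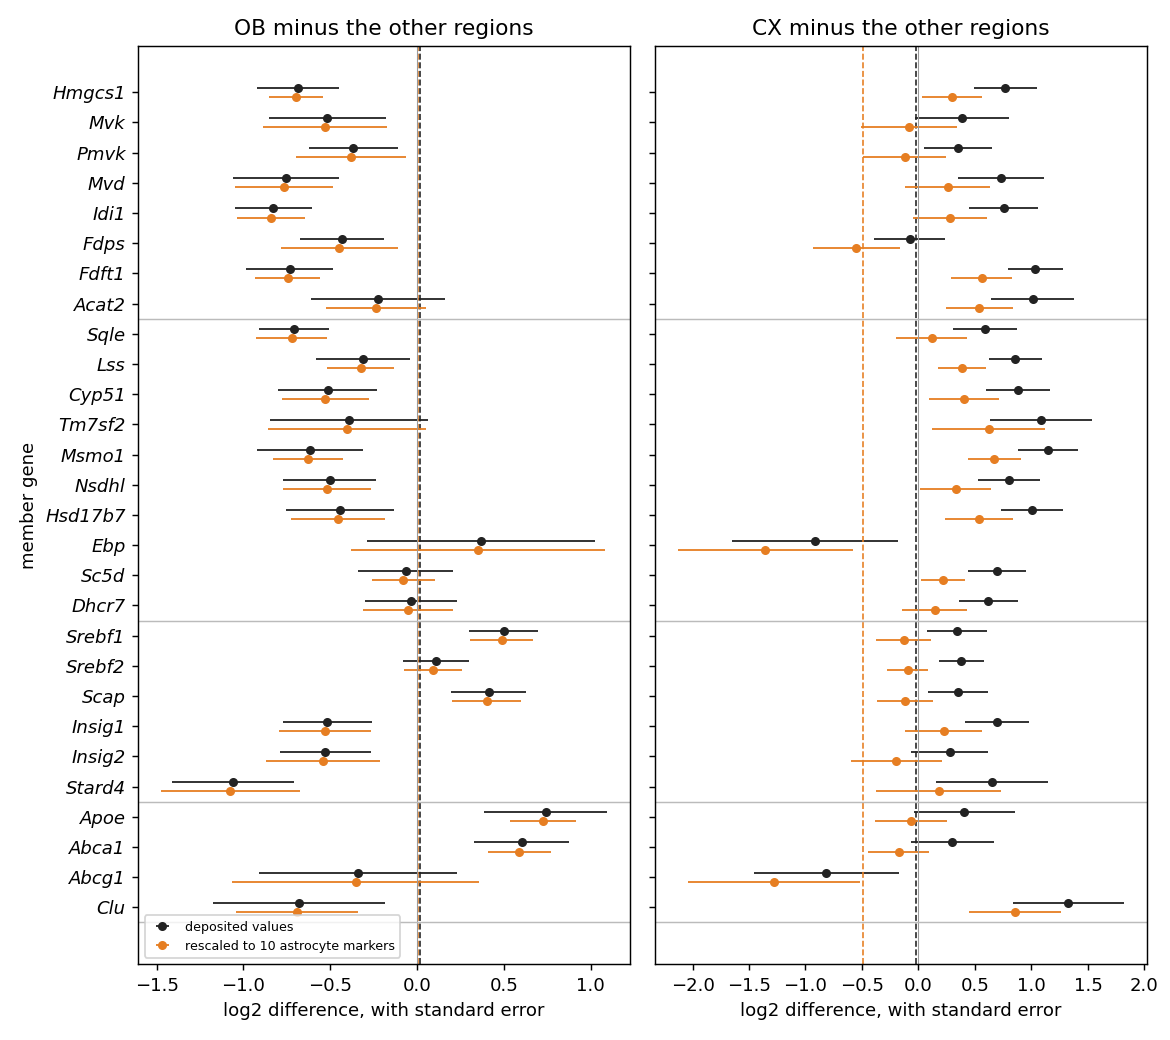
Difference of the OB (left) and of the CX (right) from the other regions for each of the 28 genes (vertical axis) on the log2 scale (horizontal axis), as estimate and standard error, on the deposited values (black) and after rescaling to 10 astrocyte markers (orange). Dashed lines mark the median of all genes tested on each scale. The OB estimates hardly move with the scale, whereas those of the CX move down together with the median of all genes, to -0.49.

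Of the control genes, Srebf1 and Scap had their highest mean in the OB, while Srebf2 and Insig1 had it in the CX. Srebf1 encodes SREBP1, which also drives fatty acid synthesis, and had values of 792, 778 and 765 in OB, 429, 507 and 612 in HC, 704 and 768 in CX and 469.9, 623 and 399.9 in BS samples. The OB and CX samples, which overlapped, lay above all HC and BS samples. The regions differed (limma F test, adjusted p = 0.0386), but this call was lost in 9 of the 11 fits that left out a sample, as well as in edgeR and on the rescaled values. Srebf2, which encodes the main activator of the cholesterol enzymes, had values of 685, 685 and 747 in OB, 547, 620.2 and 725 in HC, 863 and 794 in CX and 447, 773 and 579 in BS samples. Both CX samples were above all others by little, and the regions did not pass the test (limma F test, adjusted p = 0.359). Scap had 533 to 718 in OB, 332 to 455 in HC, 608 and 613 in CX and 364 to 611 in BS samples, and was not called.

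Insig1, a target of SREBP2 that retains the SREBPs in turn, was low in the OB and HC and high in the CX, and the BS overlapped with both HC and CX. It lies on chromosome 5 from 28071363 to 28078662. Its values were 557, 563 and 533 in OB, 463, 709.7 and 551 in HC, 1131 and 998 in CX and 683, 1126 and 953 in BS samples (limma F test, adjusted p = 0.0102). The OB samples overlapped with the HC and lay below all CX and BS samples. The adjusted p was 0.0529 without CX replicate 1, the one library that ended the call. After the rescaling described above, Insig1 was higher in the BS by 0.80 ± 0.21 (SE) on the log2 scale (limma, adjusted p = 0.0464). The median of all genes in the BS was 0.35 on that scale. On the deposited values the difference was 0.46 ± 0.26 (SE; limma, adjusted p = 0.340) and was not called. Insig2 had 112 to 171 in the OB and 160.0 to 321 in the BS, and was not called.

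Stard4, a carrier that moves cholesterol between membranes in the cell, had values of 30.4, 29.2 and 37.7 in OB, 94.9, 119 and 68.6 in HC, 67.8 and 96.6 in CX and 38.9, 44.1 and 54.7 in BS samples. All OB samples were below all others, with BS replicate 1 only just above. Stard4 was lower in the OB by -1.06 ± 0.35 (SE) on the log2 scale (limma, adjusted p = 0.114). Its adjusted p in the F test was 0.0244 (limma), and exceeded 0.05 without CX replicate 2 and without replicate 1 or 2 of the OB or HC. The call in the OB was lost without any one of the OB, HC or CX samples, at differences of -0.95 to -1.17, and on the rescaled values, at -1.08 ± 0.40 (SE), where the F test gave an adjusted p of 0.150 (limma). Over the 6 control and transfer genes, the median difference in the CX was 0.37 on the deposited values and -0.11 after the rescaling to astrocyte markers. Its sign depended on the scale because the rescaling moved all genes alike. Relative to the median of all genes, these genes were 0.39 higher before and 0.38 higher after rescaling.

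On the export side, Apoe, the main apolipoprotein of brain lipoproteins, lies on chromosome 7 from 19696109 to 19699188 and had the highest mean of the 28 genes per length, 9480.1 per kilobase of exon. It had values of 27018, 26494 and 29075 in OB, 14391, 19612 and 22639 in HC, 24897 and 22900.5 in CX and 7785, 16624 and 11517 in BS samples. All OB samples were above every other sample, and the BS overlapped with the lowest HC sample through BS replicate 2. Apoe was lower in the BS by -1.0 ± 0.28 (SE) on the log2 scale (limma, adjusted p = 0.0511). After rescaling it was still called, at -0.66 ± 0.19 (SE; limma, adjusted p = 0.0639), where the median of all genes was 0.35. All BS samples were then below every other sample. On the deposited values, the difference without BS replicate 1 was -0.73 and the call was lost, as it was without BS replicate 3, at -1.01. The F test gave an adjusted p of 0.0307 (limma), which ranged from 0.00239 to 0.114 on leaving out single samples and was over 0.05 without BS replicate 1 or 3 or any of the OB and CX samples. The BS samples with the lowest Apoe, replicates 1 and 3, also had the lowest astrocyte marker sums, 97870.3 and 166840, and the highest sums of choroid plexus markers, 251198 and 123345, in that region. The part of these in the difference was not tested.

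Clu, which encodes the secreted chaperone clusterin, also called apolipoprotein J, gave the smallest adjusted p of the 28 genes (limma F test, adjusted p = 0.000739). Its values were 7484, 10870.0 and 11075 in OB, 16377, 23417 and 24197 in HC, 29720.2 and 28069 in CX and 5881, 10708 and 6706 in BS samples. The HC and CX samples lay above all OB and BS samples, which overlapped, and the CX samples were the highest. The F test stayed under 0.05 in all alternatives run, with adjusted p of at most 0.00976. Clu was not called in any single region, with log2 differences of 1.33 ± 0.49 (SE) in the CX (limma, adjusted p = 0.393) and -1.18 ± 0.41 in the BS (limma, adjusted p = 0.112).

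Abca1, the transporter that passes cholesterol to nascent lipoproteins, ranged from 1591 to 2257 in OB, 1065 to 1439 in HC, 1496 to 1864 in CX and 615 to 1629 in BS samples, and was called higher in the OB on the rescaled values alone, at 0.59. Abcg1, a second transporter, was low and variable, from 24.8 to 177, and was not called.

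Ratios of 2 genes within a sample do not depend on its size factor, and were chosen after the values had been seen, so that no test was made. The ratio of Apoe to Hmgcs1 was 12.6, 13.4 and 13.2 in OB, 5.64, 5.43 and 5.86 in HC, 5.95 and 4.52 in CX and 3.59, 4.31 and 4.20 in BS samples. Every OB sample was above all other samples, and every BS sample below. The ratio of Abca1 to Hmgcs1 averaged 0.915 ± 0.151 (SD, n = 3) for OB, 0.394 ± 0.0225 (SD, n = 3) for HC, 0.371 ± 0.106 (SD, n = 2) for CX and 0.360 ± 0.0705 (SD, n = 3) for BS samples. The OB samples again lay above all others. For Srebf1 to Hmgcs1 the means were 0.370 ± 0.0242 (SD, n = 3) in the OB and between 0.156 and 0.175 in the other regions. Apoe to Clu separated the OB, at 3.61, 2.44 and 2.63, and the BS, at 1.32, 1.55 and 1.72, from the HC and CX, where all 5 samples were between 0.816 and 0.936. Insig1 to Hmgcs1 gave another order, with every BS sample above all others, at 0.292 to 0.347, every HC sample below, at 0.143 to 0.196, and the OB, at 0.241 to 0.285, overlapping with the CX.

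**Figure D4:**
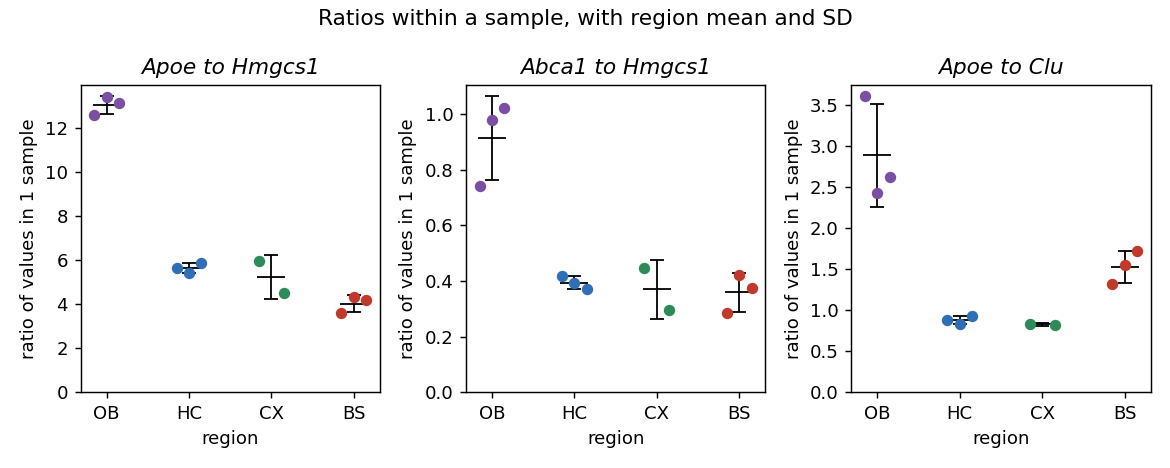
Ratio of the values of 2 genes within the same sample (vertical axes, starting at 0) for Apoe to Hmgcs1, Abca1 to Hmgcs1 and Apoe to Clu in each region, with samples as points and the region mean and SD as bars (n = 3, or 2 in the CX). The 3 OB samples lie above all others in each panel, between 12.6 and 13.4 for Apoe to Hmgcs1.

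Of 14 further genes of sterol synthesis and SREBP control, the F test called 2, or 14.3%, against 16.5% of all genes, a share near the background. Acss2 had the smaller adjusted p. Acss2, which makes acetyl-CoA from acetate, had means of 218 ± 34.2 (SD, n = 3) for OB, 396 ± 69.0 (SD, n = 3) for HC, 496 ± 101 (SD, n = 2) for CX and 306 ± 49.3 (SD, n = 3) for BS samples (limma, adjusted p = 0.00860). All OB samples were below all others.

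Of 24 genes of cholesterol uptake, storage, turnover and other export, 23 could be tested and 11, or 47.8%, were called in the F test, against 16.5% of all genes. Among the 11, the highest region was the BS for 5, the CX for 4 and the OB for 2. Lcat, which esterifies cholesterol on lipoproteins, had its highest mean in the OB, 1682 ± 189 (SD, n = 3), and its lowest in the BS, 585 ± 72.9 (SD, n = 3; limma, adjusted p = 8.70e-05). Apod, a further apolipoprotein, had values of 4035 to 5432 in OB, 224 to 870.1 in HC, 235 and 411 in CX and 1050 to 3968 in BS samples (limma, adjusted p = 0.000273). Lrp8, a receptor for Apoe and reelin, was below all other samples in the BS, at 354 to 435, and averaged 987 in the CX (limma, adjusted p = 0.000347). Npc1, which exports cholesterol from lysosomes, was likewise lowest in the BS, at 746 ± 80.2 (SD, n = 3; limma, adjusted p = 0.00397), whereas the lysosomal lipase Lipa was highest there, at 438 ± 121 (SD, n = 3; limma, adjusted p = 0.00468). Of 14 fatty acid synthesis genes 5, or 35.7%, were called, against the same 16.5%: Elovl5, Hacd3, Acacb, Fads2 and Fads1. The desaturase Fads1 had means of 8052 ± 271 (SD, n = 3) for OB and 4365 ± 1972 (SD, n = 3) for BS samples, and the acetyl-CoA carboxylase Acacb 66.3 ± 31.3 (SD, n = 3) for OB and 167 ± 62.5 (SD, n = 3) for BS samples.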

How the data were processed

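RNA of sorted Aldh1l1-eGFP cells was sequenced from 11 samples, 3 OB, 3 HC, 2 CX and 3 BS, grouped by the region in their labels. Per the labels, libraries were made with the Trio RNA-Seq kit from total RNA, and the authors mapped reads with STAR 2.5.0a to mm10 and normalized counts with DESeq2 1.20.0. The deposited values are a normalized signal, the count of each gene divided by 1 size factor per sample, which the study calls RPM. All non-zero values (100%) were whole multiples of 1 step per sample within 0.01 steps, so that reads could be recovered.

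Values were tested as log2(value + 1) with limma 3.58.1 in R 4.3.3, two-sided and with a mean-variance trend. Low genes had been removed by filterByExpr of edgeR, applied to recovered reads, with p-values adjusted over all 13875 genes tested. The F test over 4 regions was called at an adjusted p under 0.05. Each region was compared with the samples of the other regions pooled, with the study's thresholds and p unadjusted. Standard errors and fold changes are on the log2(value + 1) scale, which understates the change of low genes. On simulated data with 200 changed genes and the same dispersion for all genes, the rule called 53 of 100 genes changed by a log2 of 1 in a CX comparison of 13875 genes, and 190 unchanged ones. The F test called 5 of the same 100 genes for the CX. Of 100 genes drawn anew for each other region, it called 7 for the OB, 11 for the HC and 7 for the BS. What passes adjustment depends on how many genes change, and in the real data the F test called 2285. These counts therefore do not give its recovery in the real data.

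Alternatives were edgeR 4.0.16, DESeq2 1.42.0, pseudocounts of 0.25 and 5, no filter, no trend, a mean for each region, a replicate block, adjusted p-values and leaving out each sample. Scaling to astrocyte markers and the alternatives for samples that do not overlap were added after seeing the data. Values in every sample are given for members called in the F test or in a region, and for Tm7sf2 and Srebf2. Members, gene lists and marker lists were chosen with earlier results of these data known. Coordinates and exon lengths are from GENCODE for GRCm38, and promoters from RefSeq. Tables and plots were made in Python 3.11.15 (pandas 2.3.3, matplotlib 3.10.9). Immunostaining and ChIP were not analysed here. Some genes of the further lists are not reported here.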

Additional observations from a re-analysis of the deposited data

How the results depend on the processing

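The called differences of single regions, and that of Tm7sf2 in the CX, kept their direction under the alternatives. Of the fits of a named gene that left out 1 sample, 198 kept their side of the threshold, 73 lost it and 4 gained it. Of the other fits, 201 kept it, 31 lost it and 3 gained it. The 11 genes called across regions became 15 with DESeq2, 7 without the filter, 7 with astrocyte marker scaling and 4 without the trend, and 4 to 17 when single samples were left out. Calls in the OB, 3 in the main test, were 5 with DESeq2, 7 with astrocyte marker scaling, 7 with a mean for each region, 1 with adjusted p-values in limma and 0 to 6 without single samples. Calls in the HC, 0 in the main test, were 2 with a mean for each region and 0 to 1 without single samples. Calls in the CX, 5 in the main test, were 0 with astrocyte marker scaling, 12 with a mean for each region, 0 with adjusted p-values in limma and 1 to 8 without single samples. Calls in the BS, 1 in the main test, were 2 with edgeR (TMM and RLE), DESeq2 or astrocyte marker scaling, 3 with a mean for each region, 0 with adjusted p-values in limma and 0 to 3 without single samples. No gene was called without BS replicate 1 or 3. Members with both CX samples above all others numbered 13, 12 with TMM scaling, 3 with astrocyte marker scaling and 13 to 15 without single samples. Those with all OB samples below all others numbered 2, 1 with TMM scaling, 8 with astrocyte marker scaling and 2 to 6 without single samples. For further sterol synthesis genes the 2 calls became 1 with edgeR TMM, no filter or the replicate block, 0 without the trend or with astrocyte marker scaling, and 1 to 3 without single samples. For uptake and export genes the 11 calls became 7 without the trend and 8 to 12 without single samples. For fatty acid synthesis the 5 calls became 3 with edgeR or without the filter, 0 without the trend and 2 to 9 without single samples. The cause of these changes was not tested.

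Samples of different regions share replicate numbers. Of 15 pairs with the same number, 3 had deviations correlated over 0.1 (range -0.160 to 0.25), as did 5 of 30 other pairs. Between OB and HC, pairs with the same number had 0.195, 0.074 and 0.25, and the other pairs -0.224 to 0.0283. Between HC and BS, pairs with the same number had 0.109, 0.09 and -0.160. The 2 CX samples gave equal values of opposite sign with each sample, so that their pairs are not separate evidence. Whether the numbers pair the samples cannot be decided from so few pairs. With the replicate block, 12 genes were called across regions, 2 for OB, 0 for HC, 5 for CX and 1 for BS. Precision is limited by the 2 samples of the CX and by depth, which fell to 2830746 reads in a BS sample.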
